A study of Arabidopsis thaliana with 27 samples.

Results

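Callus of the Arabidopsis mutant upf3-1 was compared with callus of the wild type after 3 days on shoot-inducing medium, on 6 of the 27 arrays of the study. The 3 upf3-1 arrays and the 3 wild type arrays were found by genotype and day in the sample labels. Hypocotyl pieces of 12-day-old seedlings had been kept for 6 days on medium that induces callus before the transfer to shoot-inducing medium. All plants, the mutants included, are of the Columbia (Col-0) accession. The other arrays hold the same genotypes on days 0 and 6 and the UPF1 mutant lba1-1/upf1-1 (here upf1-1) on all 3 days, with 3 arrays in each of the 9 groups. Each array was hybridised with labelled total RNA of whole callus, and the study names 1 mutant line for UPF3. The design text of the series gives the purpose as finding the genes that the upf mutations affect.

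UPF3 is a factor of nonsense-mediated mRNA decay (NMD), a pathway that removes transcripts whose translation ends too early or in an unusual place. In the usual picture UPF3 binds the exon junction complexes left behind by splicing, and joins them through UPF2 to the helicase UPF1 at a terminating ribosome. A short upstream open reading frame (uORF) in the leader of a transcript can make that transcript an NMD target, and transcribed pseudogenes with broken reading frames are targets too. In the culture system, auxin-rich medium first gives a callus that resembles a lateral root primordium, and the cytokinin-rich shoot-inducing medium then lets the callus turn green and form shoot meristems.

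Values are log2 signals per probe set from the robust multi-array average (RMA), in which every array is forced onto the same distribution, and 13286 genes were tested. A log2 difference of 1 is a doubling. The 27 arrays shared a median of 6.57, so a change common to most transcripts cannot be seen, and the number of arrays limits the precision. The callus identity could be checked only in part, since levels of different probe sets cannot be compared and most defining markers were not measured. Of 8 markers of callus and lateral root founder cells 3 were measured (LBD16, PUCHI and LBD29), and none of the 3 passed the test between the genotypes. Of 6 shoot meristem markers 1 was measured (CLV3), of 5 stomatal lineage markers 3, and of 6 green tissue markers 5. All 5 green tissue markers were called higher in upf3-1. Replicates 1 and 2 of upf3-1 on day 3 correlated with r = 0.992 across probe sets, the lowest value of any 2 arrays of a group, so results that rest on them are given without them below. RNA degradation measured as the 3′ minus 5′ probe difference ran from 1.17 to 1.19 in upf3-1 and from 1.15 to 1.26 in the wild type.

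UPF3 itself (AT1G33980) was low in each upf3-1 array. Its log2 signal was 5.98, 6.38 and 5.87 in upf3-1 and 9.12, 9.14 and 8.99 in the wild type. The groups lie far apart, with a difference of -3.01 (SE 0.095, limma adjusted p = 1.69e-16). Where the probe set lies relative to the upf3-1 lesion is not known here, so this checks the label only in part. Of the 5 measured genes on each side of UPF3 along the chromosome, AT1G34010 was higher by 0.51 (SE 0.084, adjusted p = 9.82e-05). AT1G33970 was lower by 0.53 on the log2 scale (adjusted p = 0.0372), a call that was lost in 4 of 6 fits without 1 array, with adjusted p of 0.0672 to 0.157. The other 8 neighbours did not pass the test.

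In all, 2994 of 13286 genes (22.5%) passed an adjusted p of 0.05: 1453 (10.9%) were higher in upf3-1 and 1541 (11.6%) were lower. Most of these differences were small, with a median size of 0.43. At a minimum of 2-fold there were 243 genes higher (1.83% of those tested) and 57 lower (0.429%), and at 4-fold 22 and 7. The 3 and 3 arrays did not overlap for 4866 genes (36.6%), 2086 upward (15.7%) and 2780 downward (20.9%), and 2804 of the called genes were among them. Without upf3-1 replicate 1 the number of calls was 2187, and without upf3-1 replicate 2 it was 2758.

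The balance of higher and lower calls depends on the scale of the arrays. The poly-A control RNAs added to each sample averaged 5.66 ± 0.12 in upf3-1 and 5.98 ± 0.12 in the wild type (log2 signal, SD, n = 3 each). With each array centred on them, all differences move up by 0.32, the median of all genes moves from -0.04 to 0.28, and 96.8% of the calls are higher in place of 48.5%. Centring on 4 reference genes moves the median to 0.04 and gives 72.2% higher calls. Every fall given here is therefore relative to the bulk of transcripts, and 515 of the 1541 called falls lie above 0 on the control RNA scale.

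Most of the measured transcripts with a conserved uORF or reported as NMD targets were higher in upf3-1, some of them more than 4-fold. Of 15 measured uORF genes, out of 30 listed, 10 were called higher and 0 lower, against 10.9% and 11.6% of all genes. Their median difference was 0.65, against -0.04 over all genes. Of 6 measured NMD targets, out of 12 listed, 5 were called higher and 0 lower, also with a median of 0.65. The uORF genes had been noted in earlier results from these arrays, so the lists do not support the direction independently.

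CPUORF47 (AT5G03190), named for its conserved peptide uORF, had log2 signals of 8.00, 8.03 and 7.85 in upf3-1 and 5.23, 5.31 and 5.45 in the wild type. Both groups were tight and the difference was 2.63 (SE 0.16, adjusted p = 1.15e-11). AT3G53400 stood at 9.37, 9.22 and 9.29 against 6.79, 6.88 and 6.99, a rise of 2.41 (SE 0.080, adjusted p = 2.61e-16). AT5G15950 stood at 8.71, 7.74 and 8.42 against 6.23, 6.21 and 5.82, a rise of 2.20 (SE 0.24) with more scatter among the upf3-1 arrays. AT1G70780 rose by 1.67 (SE 0.11) and AT1G73600 by 1.22 (SE 0.15), with groups that did not overlap.

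Smaller rises were seen in abundant uORF transcripts. SAMDC, which encodes S-adenosylmethionine decarboxylase of polyamine synthesis and whose uORF is known to respond to polyamines, stood at 12.31, 12.48 and 12.42 against 11.82, 11.71 and 11.73. The difference of 0.65 (SE 0.087, adjusted p = 6.01e-06) is larger than the spread in either group. AT5G09460 rose by 0.79 (SE 0.090). LHW, a basic helix-loop-helix factor of root vascular development, rose by 0.38 (SE 0.10). The methyltransferase gene PMEAMT of phosphocholine synthesis was higher by 0.27 (SE 0.091, adjusted p = 0.0318), and its call was lost in 4 of 6 fits without 1 array (adjusted p 0.0756 to 0.174).

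AT5G50010 was the least even of the called uORF genes. It stood at 6.17, 4.79 and 4.90 in upf3-1 and at 4.56, 4.57 and 4.53 in the wild type, a difference of 0.73 (SE 0.23, adjusted p = 0.0237). Most of that difference comes from upf3-1 replicate 1, and without that array the adjusted p was 0.241. The call was lost in 4 of 6 such fits. The sucrose-regulated bZIP factor genes bZIP44 and BZIP53 differed by -0.06 and -0.08, AT3G25570 by 0.10, AT3G22970 by 0.08 and AT1G16860 by 0.05, and none of the 5 passed the test.

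Among the reported NMD targets, AT1G36730 was the highest and the tightest, with 11.24, 11.34 and 11.27 in upf3-1 and 9.50, 9.41 and 9.53 in the wild type. It rose by 1.80 (SE 0.072, adjusted p = 8.78e-15). AT5G45430 stood at 10.09, 10.28 and 10.16 against 8.57, 8.51 and 8.88, a rise of 1.52 (SE 0.086). AT2G45670 rose by 0.68, AT5G40920 by 0.61 and AT3G63340 by 0.39. AT5G62760 differed by 0.20 (adjusted p = 0.274). Over the 15 called uORF and NMD target genes the SD of the upf3-1 arrays had a median of 0.099 and that of the wild type arrays 0.090, and in all 15, picked as called, the groups did not overlap (15.7% of all genes are apart in this direction).

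**Figure D1:**
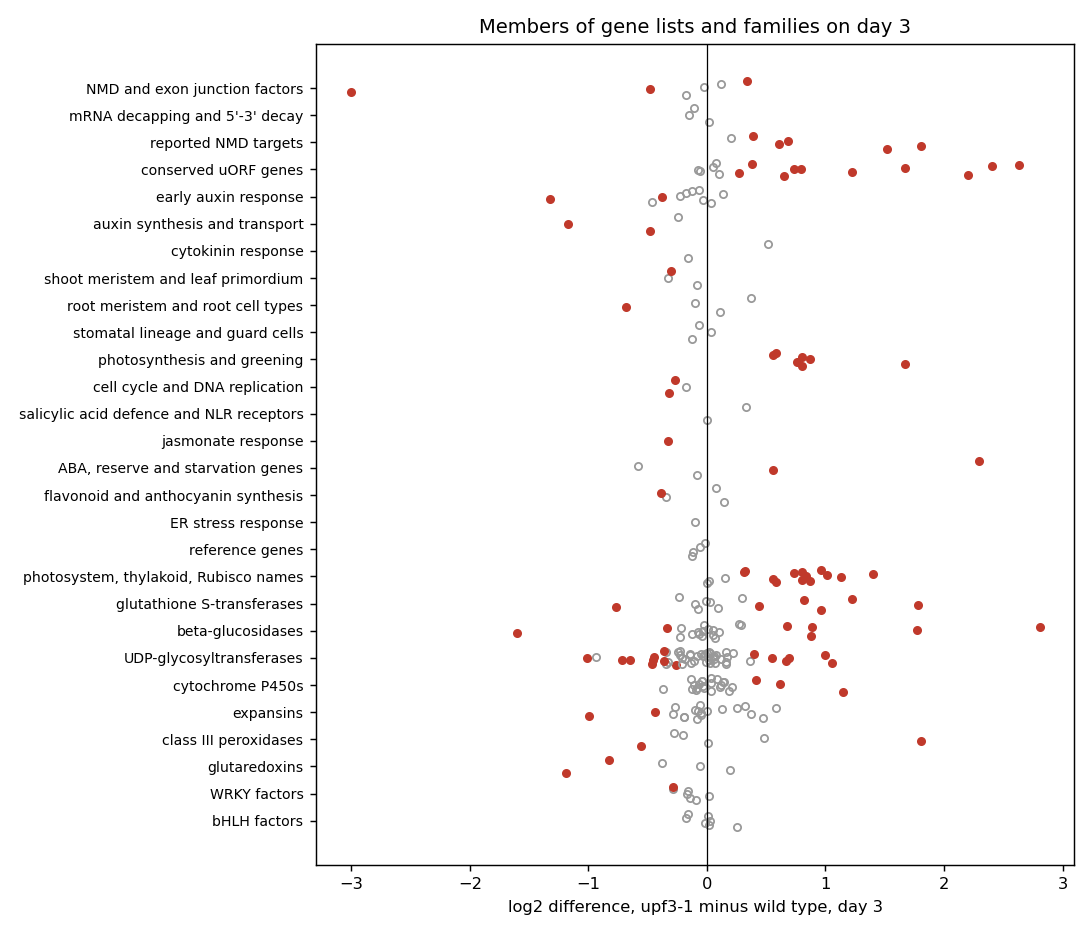
Log2 difference of upf3-1 minus wild type on day 3 for each measured member of 18 gene lists and 10 name-based families, 1 point per gene, filled where limma's adjusted p is under 0.05. All 6 reported NMD targets and all 7 genes of the photosynthesis list lie to the right of 0, as do 13 of 15 uORF genes and 15 of 16 of the photosystem family. The UPF3 gene itself lies at -3.01, and most families are spread on both sides.

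Of 6 measured genes of the NMD and exon junction list, out of 11, 1 was higher and 2 lower, UPF3 included, and 4 had an unadjusted p under 0.05. Over all genes 10.9% were higher and 11.6% lower. AT1G80000 rose by 0.33 (SE 0.060, adjusted p = 0.000224). AT1G28260 was lower by 0.48 on the log2 scale (adjusted p = 0.00704), which was lost without upf3-1 replicate 1 (adjusted p = 0.0702). Y14, a subunit of the exon junction complex, differed by -0.03 (adjusted p = 0.82). Of 3 measured genes of decapping and 5′-3′ decay, 0 were called by limma and 0 had an unadjusted p under 0.05. LSM1B, a subunit of the ring that promotes decapping, differed by -0.15, and AT1G79090 by -0.11. None of the 18 listed SR splicing factors was measured by a probe set with 1 gene symbol.

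A few pseudogenes rose strongly. Of 989 genes typed as pseudogenes 22 (2.22%) were higher and 46 (4.65%) lower, against 10.9% and 11.6% of all genes, with a median of -0.03. Their mean wild type level was 3.32 against 5.99 over all genes, and whether weak signal lowers their share of calls was not tested. The balance depends on the scale. On the control RNA scale 114 were higher and 1 lower (2925 and 96 of all genes), and on the reference gene scale 36 and 15 (1894 and 728 of all genes). AT3G21020 stood at 7.16, 7.85 and 7.19 in upf3-1 and 4.91, 4.57 and 4.54 in the wild type, a rise of 2.73 (SE 0.22, adjusted p = 1.93e-09). AT2G13970 rose by 2.37 (SE 0.090), from 5.84, 5.75 and 5.82 in the wild type to 8.16, 8.27 and 8.09. AT1G34330 rose by 1.87 (SE 0.29), with 6.53, 5.66 and 5.36 against 4.39, 3.91 and 3.65. AT4G08110 rose by 1.55 and AT5G04880 by 1.30, and these last are genes chosen after their values were seen.

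Most of the measured photosynthesis genes were higher in upf3-1 callus, where 10.9% of all genes were called higher and 11.6% lower. All 7 measured members of a list of 37 for photosynthesis and greening were called higher, with a median of 0.80. Of 16 nuclear genes named for the photosystems, thylakoids or Rubisco 13 were called higher and 0 lower, with a median of 0.77. The list and the family share 4 genes and hold 19 distinct genes, of which 16 were called higher. In RNA of whole callus, more green cells and more of these transcripts per cell cannot be told apart.

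PRK, the Calvin cycle enzyme phosphoribulokinase, had log2 signals of 6.32, 7.04 and 6.55 in upf3-1 and 5.20, 5.07 and 4.62 in the wild type. It rose by 1.67 (SE 0.18, adjusted p = 2.62e-07), the largest rise of the list. PSBW, a small subunit of photosystem II, stood at 8.61, 9.02 and 8.74 against 7.56, 7.76 and 6.85. It rose by 1.40 (SE 0.17), with a wild type spread set mainly by replicate 3. PSAE-1, a photosystem I subunit, rose by 1.13 (SE 0.17), and PSB27, a photosystem II assembly factor, by 1.01 (SE 0.15). The antenna proteins LHCB4.1 and LHCB4.2 rose by 0.87 (SE 0.13) and 0.80 (SE 0.14), and Rubisco activase (RCA) by 0.80 (SE 0.13). PORB, which makes chlorophyllide in the light, rose by 0.58 (SE 0.13). SBPASE of the Calvin cycle was higher by 0.76 (SE 0.23, adjusted p = 0.018), but its groups overlapped and the call was lost in 4 of 6 fits without 1 array (adjusted p 0.0546 to 0.087). Calls on LHCB4.3, TAAC and TAPX were also lost in 1 or 2 of these fits (adjusted p 0.0752 to 0.164), all 3 without wild type replicate 3 and those of LHCB4.3 and TAPX also without upf3-1 replicate 2.

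The order of the arrays was shared by the photosynthesis genes. Of the 16 called, upf3-1 replicate 2 was highest in 15 and replicate 1 lowest in 14. In 14 of the 16 even the lowest upf3-1 array was above the highest wild type array, as for 15.7% of all genes, but the 16 had been picked as called higher. HPR, hydroxypyruvate reductase of photorespiration, was chosen after its values were seen: 6.68, 7.25 and 7.22 against 5.21, 5.36 and 5.10, a rise of 1.83 (SE 0.14) with replicate 1 lowest again. ALDH11A3, also chosen afterwards, stood at 5.13, 5.87 and 5.73 against 3.96, 4.31 and 3.87, a rise of 1.53 (SE 0.17).

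Of 69 genes encoded in the plastid genome 14 (20.3%) were called higher and 2 (2.9%) lower, against 10.9% and 11.6% of all genes, with a median of 0.17 against -0.04. The ribosomal protein gene rpl22 rose by 0.57 (SE 0.10) and the photosystem I gene psaJ by 0.50 (SE 0.13). The NADH dehydrogenase-like subunit gene ndhG fell by 0.64 on the log2 scale (SE 0.15).

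The single largest rise was that of QQS (AT3G30720), an orphan gene known from Arabidopsis thaliana whose level affects starch content. It stood at 8.87, 7.50 and 7.92 in upf3-1 and 4.39, 4.22 and 4.13 in the wild type, a difference of 3.85 (SE 0.28, adjusted p = 5.27e-10). Next came AT2G16005, with 10.99, 8.36 and 9.50 against 5.69, 6.81 and 5.25, a difference of 3.70 (SE 0.61, adjusted p = 8.78e-05). AT1G50060 stood at 7.61, 5.44 and 6.61 against 2.80, 3.00 and 2.81, a difference of 3.68 (SE 0.37). In all 3 genes the upf3-1 arrays spread over more than a unit, with replicate 1 highest and replicate 2 lowest. BGLU44, a beta-glucosidase gene, showed the same order, with 7.12, 5.16 and 6.24 against 3.19, 3.35 and 3.56, and rose by 2.81 (SE 0.38).

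The rest of the 12 largest rises divide by how the upf3-1 arrays scatter. AT4G15260 stood at 8.73, 9.03 and 9.01 against 6.14, 6.12 and 6.62 and rose by 2.63 (SE 0.11), as tightly as CPUORF47 and AT3G53400. AT5G48110 (2.49, SE 0.27), AT4G11190 (2.45, SE 0.28), AT1G49450 (2.45, SE 0.34) and AT5G47980 (2.44, SE 0.35) rose by similar amounts, and in each of them replicate 1 was highest and replicate 2 lowest. The largest of these spreads, for AT1G49450, ran from 5.55 to 7.48 in upf3-1 against 3.75 to 4.40 in the wild type.

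**Figure D2:**
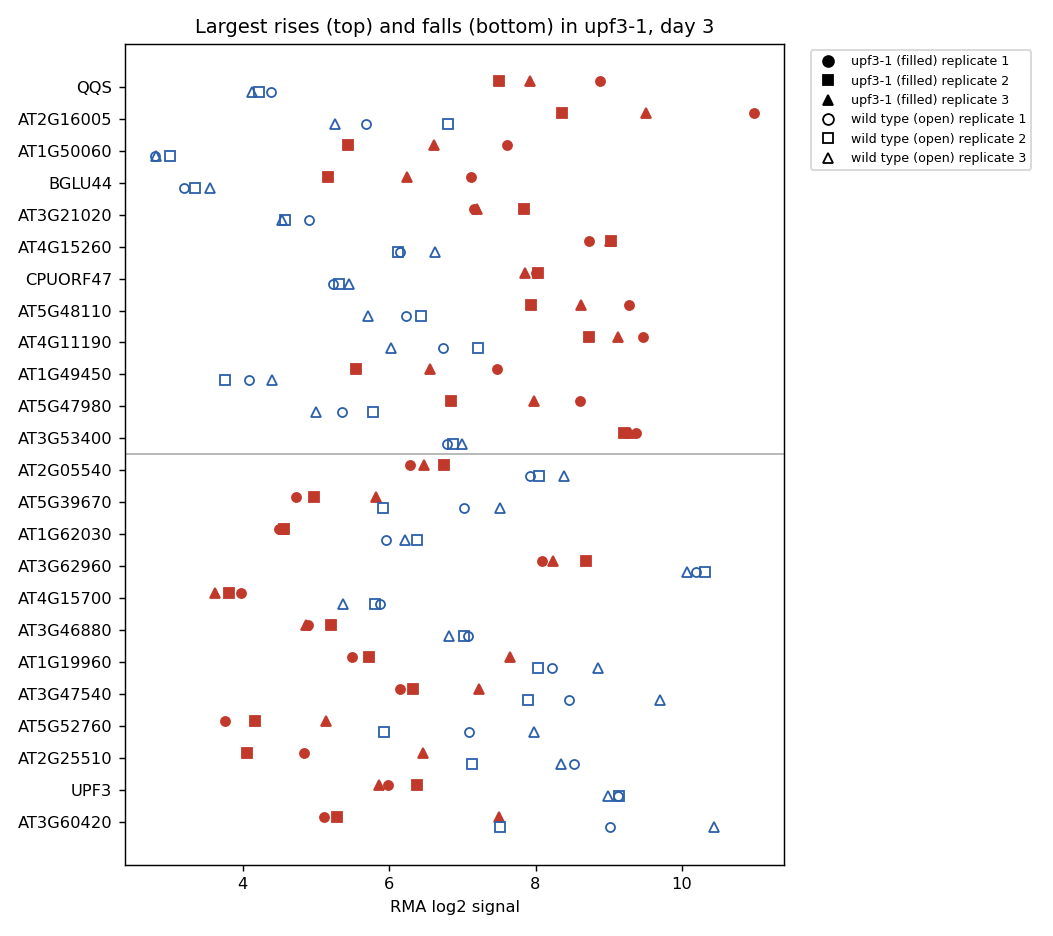
RMA log2 signal of the 12 genes with the largest rise and the 12 with the largest fall among called genes whose arrays do not overlap, 1 symbol per array (filled for upf3-1, open for wild type, shape for the replicate number). QQS, AT2G16005, AT1G50060 and BGLU44 spread over more than 1 unit among the upf3-1 arrays, while CPUORF47 and AT3G53400 do not.

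The scatter was set beside the calls on the other days. All days share 1 model, in which scatter among the day 3 arrays enlarges a gene's SE on every day, so the scatter and the calls are not separate measures. Of the 243 genes at least 2-fold higher on day 3, 129 were also called higher on days 0 and 6, and 72 on neither. Among the 129, the median SD of the upf3-1 arrays was 0.12 and that of the wild type arrays 0.15. Among the 72 it was 0.70 and 0.21. The 129 lay above the wild type mean by a median of 1.25, 1.37 and 1.35 in upf3-1 replicates 1, 2 and 3, and the 72 by 1.92, 0.69 and 1.29. Replicate 1 was highest in 65 of the 72 and replicate 2 lowest in 70, while over all 13286 genes replicate 1 was highest in 4222 and replicate 2 lowest in 4293. In the 129 the order leaned the other way, with replicate 1 lowest in 79 and replicate 2 highest in 67. Over all genes these numbers were 5344 and 5343.

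All 129 were still called when any of the 6 arrays was left out. Of the 72, 57 were still called without upf3-1 replicate 1 and 72 without replicate 2, and between 63 and 69 without any of the other 4. A gene called on day 3 and not on another day is not thereby shown to differ between the days: the test of that difference, against day 0 or day 6, passed for 12 of the 72 and for 2 of the 129. It passed for 0.662% of all genes against day 0 and for 0.354% against day 6. The 72 were picked for the pattern which that test looks for, so nothing is read from their count. What sets replicates 1 and 2 apart was not tested.

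**Figure D3:**
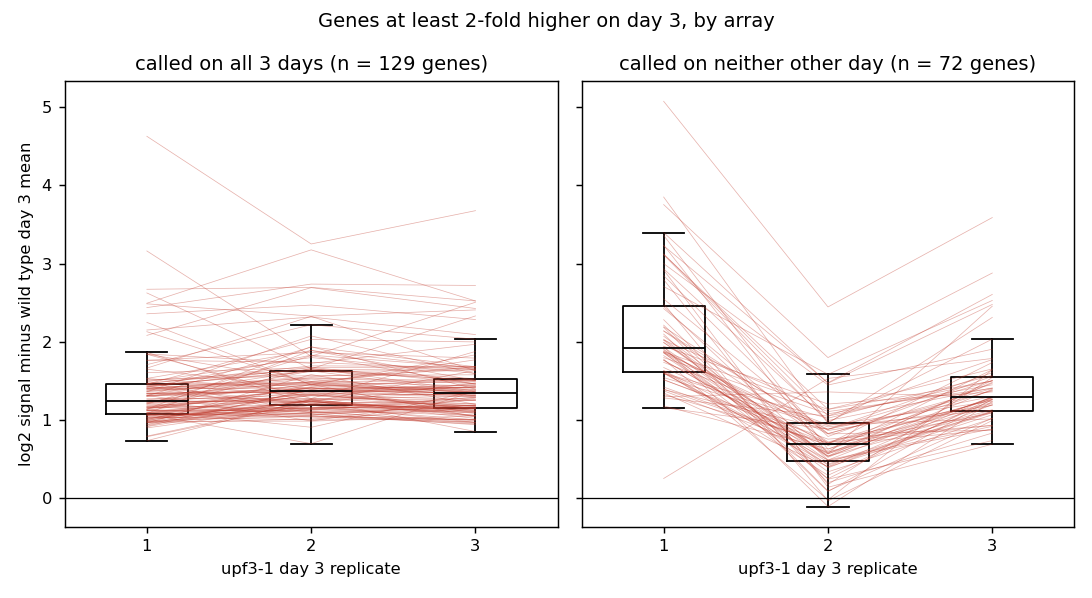
Log2 signal in each upf3-1 day 3 array minus the wild type day 3 mean, for genes at least 2-fold higher on day 3, 1 line per gene with box plots (median, quartiles and whiskers to 1.5 times the interquartile range). The 129 genes called on all 3 days have medians of 1.25, 1.37 and 1.35 in replicates 1, 2 and 3, though single genes among them are uneven. The 72 called on neither other day have medians of 1.92, 0.69 and 1.29.

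Named genes on each side of this division, chosen after their values were seen, have different known roles. Among those called on all 3 days, SBT3.5, a subtilisin-like protease, stood at 7.51, 7.74 and 7.73 against 6.05, 5.87 and 6.22 and rose by 1.61 (SE 0.14). TBL32, of the family that acetylates xylan, rose by 1.37 (SE 0.10), the acyl-activating enzyme gene AAE16 by 1.06 (SE 0.080) and the glutamate receptor-like gene GLR1.4 by 1.06 (SE 0.12). Among those with replicate 1 highest, the beta-tubulin gene TUB1 stood at 7.23, 5.86 and 6.41 against 5.32, 5.13 and 4.66 and rose by 1.46 (SE 0.23). FACT, a caffeoyl transferase of fatty alcohols in suberin wax, rose by 1.50 (SE 0.20), and GSO1, a receptor kinase needed for the root endodermal barrier, by 1.00 (SE 0.19). DRT100 was higher by 1.15 with overlapping groups, and its call was lost without upf3-1 replicate 1 (adjusted p = 0.152) and in 3 of 6 such fits in all.

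Fewer genes fell strongly, and several of the largest falls were uneven in both genotypes. AT3G60420 stood at 5.11, 5.29 and 7.50 in upf3-1 and 9.01, 7.51 and 10.44 in the wild type. The groups all but touch, and the difference of -3.02 (SE 0.89, adjusted p = 0.0161) was lost in 3 of 6 fits without 1 array, with an adjusted p of 0.107 without wild type replicate 3, 0.0788 without upf3-1 replicate 1 and 0.0608 without upf3-1 replicate 2. AT2G25510 stood at 4.83, 4.05 and 6.45 against 8.52, 7.13 and 8.34 and fell by 2.89 (SE 0.43). AT5G52760 fell by 2.65 (SE 0.64), AT3G47540 by 2.13 (SE 0.42) and AT1G19960 by 2.08 (SE 0.39), in each case with replicate 3 highest in both genotypes. AT5G39670 was lower by 1.65 on the log2 scale (SE 0.43), which was lost without wild type replicate 3 (adjusted p = 0.0537).

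Other falls were even. AT3G46880 stood at 4.90, 5.20 and 4.87 against 7.07, 7.02 and 6.82 and fell by 1.98 (SE 0.17, adjusted p = 4.27e-09). AT1G62030 stood at 4.50, 4.56 and 4.55 against 5.96, 6.38 and 6.22 and fell by 1.65 (SE 0.12). AT3G62960 fell by 1.85 (SE 0.14), AT4G15700 by 1.88 (SE 0.21) and AT2G05540 by 1.61 (SE 0.23). Loci with neighbouring numbers moved together: AT4G15660, AT4G15680 and AT4G15690 fell by 1.02, 1.42 and 1.36 beside AT4G15700, and AT3G62950 by 0.99 beside AT3G62960. These neighbours were chosen after their values were seen, apart from AT4G15660, and near-identical copies can share probes.

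Over the 57 genes at least 2-fold lower, replicate 3 was the highest array of both genotypes in 26. That joint order was not counted over all genes. Within upf3-1 alone, replicate 3 was highest in 30 of the 57 and in 3721 of all 13286 genes. The wild type arrays had a median SD of 0.45 and the upf3-1 arrays 0.29, against 0.109 and 0.093 over all genes. Of the 57, 47 were still called without wild type replicate 3 and 51 without upf3-1 replicate 1. The chitinase gene CHI (AT2G43570) and the ubiquitin ligase gene RING1 of defence signalling, chosen after their values were seen, followed the same order. CHI stood at 5.54, 5.84 and 6.91 against 7.62, 6.88 and 8.57, a difference of -1.59 that was lost without wild type replicate 3 (adjusted p = 0.0693) or upf3-1 replicate 1 (adjusted p = 0.0526). RING1 stood at 4.88, 5.01 and 5.92 against 6.52, 5.76 and 7.30 and differed by -1.26 (SE 0.30).

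Of 10 measured early auxin response genes, out of 25, 0 were higher and 2 (20.0%) lower, against 10.9% and 11.6% of all genes, with a median of -0.15 against -0.04. On the control RNA scale and on the reference gene scale 1 of the 10 was lower. GH3.1, whose family joins auxin to amino acids, stood at 4.67, 4.66 and 5.15 in upf3-1 and 5.61, 5.97 and 6.88 in the wild type, and fell by 1.32 (SE 0.21, adjusted p = 6.71e-05). Its relative GH3.3 was lower by 0.38 (adjusted p = 0.0471), and that call was lost in 5 of 6 fits without 1 array (adjusted p 0.0811 to 0.204). Of 3 measured genes of auxin synthesis and transport, out of 15, 2 were lower. On the reference gene scale 2 of the 3 were lower, and on the control RNA scale 1. The flavin monooxygenase gene YUC4 of auxin synthesis stood at 3.67, 3.63 and 4.02 against 4.77, 5.13 and 4.95 and fell by 1.17 (SE 0.17, adjusted p = 2.33e-05). YUC2 fell by 0.48 (SE 0.10). The founder cell factors LBD16, LBD29 and PUCHI differed by -0.17, -0.12 and -0.07 and did not pass the test.

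Few genes of cytokinin response and organ identity were measured. Both measured type-A response regulators, out of 17 genes listed, missed the threshold: RR16 differed by 0.52 (adjusted p = 0.0775) and ARR15 by -0.16 (adjusted p = 0.309). Of 3 measured shoot genes, out of 22, 1 was called lower and 0 higher, where 11.6% of all genes were lower and 10.9% higher. The called gene PHV, a regulator of upper leaf identity, was lower by 0.30 (adjusted p = 0.0357). Its groups overlapped and the call was lost in 4 of 6 fits without 1 array (adjusted p 0.0742 to 0.216). LAS differed by -0.33 and CLV3 by -0.08, and neither passed. On the control RNA scale PHV differs by 0.0136 in the other direction. Of 4 measured root genes, out of 15, CR4, a receptor kinase of root stem cells, fell by 0.69 (SE 0.14). The root hair expansins EXPA7 and EXPA18 differed by -0.10 and 0.37 and did not pass. All 3 measured stomatal lineage genes lay between 2.73 and 3.45 in all 6 arrays, with differences of -0.13 for SPCH and -0.06 for FAMA.

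Of 3 measured cell cycle genes, out of 11, 2 were called lower and none higher, where 11.6% of all genes were lower. PRL, a subunit of the replication helicase MCM, stood at 8.60, 8.56 and 8.51 against 8.83, 8.96 and 8.84, a small and even difference of -0.32 (SE 0.073, adjusted p = 0.0022). The Aurora kinase gene AUR2 was lower by 0.27 (adjusted p = 0.0442), which was lost in 3 of 6 fits without 1 array (adjusted p 0.0554 to 0.271), and AUR1 differed by -0.18 (adjusted p = 0.162). On the control RNA scale AUR2 lies at 0.0468 and PRL at -0.01.

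Among stress and storage genes the linker histone gene HIS1-3, which drought and abscisic acid induce, rose most. It stood at 8.94, 8.71 and 8.69 against 6.53, 6.74 and 6.20, a difference of 2.29 (SE 0.39, adjusted p = 0.000141). APL3, a subunit of the starch enzyme ADP-glucose pyrophosphorylase, was higher by 0.56 (SE 0.15), a call that was lost without wild type replicate 2 (adjusted p = 0.0801). These are 2 of 4 measured genes of that list of 13, with 0 called lower, where 10.9% of all genes were higher and 11.6% lower. The other 2, COR15A and ICL, lay below 0, the lower of them at -0.58, and did not pass the test. Of 2 measured genes of salicylic acid defence and immune receptors, out of 21, neither passed: the receptor gene CSA1 differed by 0.33 and SAG101 by 0.00. The single measured jasmonate gene, the defensin PDF1.2, was lower by 0.33 (adjusted p = 0.0401), which was lost in 5 of 6 fits without 1 array (adjusted p up to 0.23). Of 4 measured flavonoid genes, out of 12, only AT4G14090 was called, lower by 0.39 (adjusted p = 0.0294, lost in 5 of 6 such fits, up to 0.097). The unfolded protein response factor BZIP60 differed by -0.10 and the reference genes AT5G46630 and AT5G15710 by -0.12 and -0.13, without passing.

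Counts for families of enzymes and factors stand against 10.9% of all genes higher and 11.6% lower. These families were gathered by name pattern, so members without a matching name are not counted. Of 13 glutathione S-transferases 5 (38.5%) were higher and 1 (7.69%) lower. GSTU20 stood at 8.76, 8.09 and 8.41 against 6.57, 6.94 and 6.40 and rose by 1.78 (SE 0.19). GSTU26 rose by 1.23 (SE 0.23) and ATGSTF13 by 0.96 (SE 0.24), the latter with 5.01, 3.34 and 3.58 in upf3-1, so mainly in replicate 1. Of 22 beta-glucosidases 5 (22.7%) were higher and 2 (9.09%) lower. BGLU33 rose by 1.77 (SE 0.39), highest in replicate 2, and BGLU28, which breaks down glucosinolates under sulphur deficiency, stood at 9.19, 9.90 and 9.50 against 11.34, 10.80 and 11.25 and fell by 1.60 (SE 0.28).

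Of 51 UDP-glycosyltransferases 6 (11.8%) were higher, near the 10.9% of all genes, and 9 (17.6%) lower, against 11.6%. UGT78D1, a flavonol rhamnosyltransferase, rose by 0.99 (SE 0.16). UGT71C1 was higher by 1.05 and UGT73D1 lower by 1.01, and these calls were lost in 1 and 3 of 6 fits without 1 array, that of UGT71C1 without upf3-1 replicate 1 (adjusted p = 0.0577) and that of UGT73D1 with adjusted p up to 0.145. Of 24 cytochrome P450s 3 were higher and 0 lower: CYP51G2, typed as a transcribed pseudogene, rose by 1.15 (SE 0.20) and CYP71B34 by 0.61 (SE 0.12), while CYP71B6 was higher by 0.41 and was lost without either replicate 2 (adjusted p 0.0557 and 0.0606). Of 6 class III peroxidases matched by name, AT5G64120 rose by 1.80 (SE 0.28), with 6.52, 6.52 and 6.17 against 4.77, 4.78 and 4.24. AT2G41480 was lower by 0.55, and was lost in 4 of 6 fits (adjusted p 0.127 to 0.202).

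Glutaredoxins are small oxidoreductases, some of which bind TGA transcription factors. Of 5 matched by name, 2 were lower and 0 higher. The match left out at least the glutaredoxin gene AT4G15700, whose fall is given above, so the 5 are only part of the family. Nor did it take in AT4G15660, AT4G15680, AT4G15690, AT3G62950 and AT3G62960, whose falls are also given above. GRX480 stood at 5.21, 5.28 and 5.61 against 6.47, 6.39 and 6.81 and fell by 1.19 (SE 0.28). ROXY2 stood at 7.05, 7.40 and 7.14 against 7.88, 8.31 and 7.87 and fell by 0.83 (SE 0.13). Of 19 expansins, which loosen cell walls, 0 were higher and 2 (10.5%) lower, near the 11.6% of all genes. EXPA21 fell by 0.44 (SE 0.12), and EXLB1 was lower by 0.99 with overlapping groups and was lost in 4 of 6 fits (adjusted p 0.075 to 0.162). Of 7 WRKY factors only ZAP1 was called, at -0.29 (SE 0.071) and at 0.0278 on the control RNA scale. Of 7 basic helix-loop-helix factors matched by name, 0 were called by limma and 1 had an unadjusted p under 0.05. LHW, described above as such a factor and called higher, was not matched.

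The same mutant differed from the wild type on days 0 and 6, in arrays other than those of day 3. The spread of a gene was estimated jointly over all 27 arrays, so the calls on the 3 days are not separate tests. On day 0 the test called 2035 genes (15.3%), with 8.41% of all genes higher and 6.9% lower, and on day 6 it called 2443 (18.4%), with 9.82% higher and 8.57% lower. Of the day 3 calls, 1213 were also called on day 0 in the same direction (40.5% of the day 3 calls and 59.6% of the day 0 calls) and 13 in the opposite one. For day 6 the numbers were 1537 (51.3% and 62.9%) and 3. Across genes the day 3 differences correlated with those of day 0 (r = 0.64) and of day 6 (r = 0.71), where genes are not independent replicates. In all, 935 genes were called in the same direction on all 3 days, 701 higher and 234 lower.

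On days 0 and 6 the test called each of the 6 reported NMD targets higher in the mutant. Of the 15 uORF genes 9 were called higher and 1 lower on day 0, and 9 and 0 on day 6. CPUORF47 was higher by 1.89 on day 0 and 2.47 on day 6, AT3G53400 by 2.35 and 2.45, AT1G36730 by 1.71 and 1.81, and AT5G45430 by 1.46 and 1.81. The change from day 0 to day 3 missed the threshold for CPUORF47 (limma adjusted p = 0.116) and AT1G70780 (adjusted p = 0.0792). Of the 7 photosynthesis list genes 5 were called higher on day 0 and 5 on day 6, and of the 16 of the photosystem family 8 and 12, with 0 lower. PSBW was higher by 1.06 on day 0 and 0.83 on day 6.

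**Figure D4:**
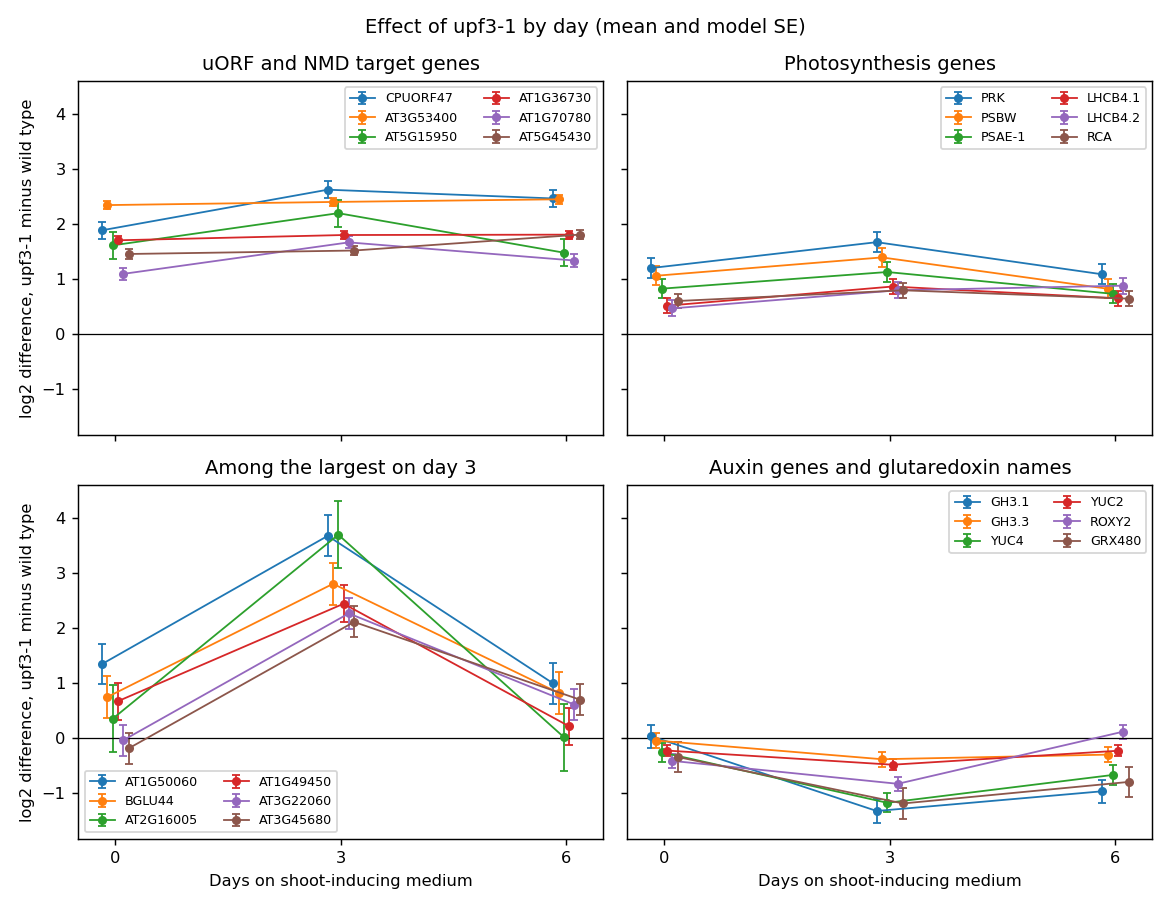
Log2 difference of upf3-1 minus wild type on days 0, 3 and 6 for named genes of 4 kinds, with the model's SE as error bars and 3 arrays per genotype and day. The uORF and NMD target genes lie above 1 on all days, and GH3.1 goes from 0.04 on day 0 to -1.32 on day 3. AT1G50060 and AT2G16005 have their largest difference on day 3, at 3.68 and 3.70. For AT2G16005 no test between days passed, and for AT1G50060 the calls against days 0 and 6 were lost in 10 and 7 of 12 fits without 1 array. The call of GH3.1 between days 0 and 3 was lost in 6 of 12 such fits.

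Tested directly, the effect of upf3-1 differed between days 3 and 0 for 88 genes (0.662%), of which 56 were more positive on day 3 (0.421%) and 32 more negative (0.241%). AT2G43610 differed by -0.89 on day 0 and 1.42 on day 3 (change 2.32, SE 0.35, adjusted p = 0.00284), with 9.23, 8.79 and 9.59 in upf3-1 and 7.74, 7.66 and 7.94 in the wild type on day 3. AT3G22060 went from -0.04 to 2.27 and AT3G45680 from -0.19 to 2.12. The root hair expansin EXPA7 was the reverse, higher by 1.23 on day 0 and at -0.10 on day 3 (change -1.33, SE 0.25, adjusted p = 0.00862). AT4G15700 went from -0.21 to -1.88 and AT4G15660 from 0.32 to -1.02.

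Between days 3 and 6 the effect differed for 47 genes (0.354%), 20 upward (0.151%) and 27 downward (0.203%), and 12 genes passed both tests. AT3G48640 was lower by 1.49 on day 3 and higher by 1.60 on day 6 (change 3.09, SE 0.48, adjusted p = 0.00565). AT5G18840 differed by 0.15 on day 3 and by 1.54 on day 6. BAT1, an acyltransferase of brassinosteroids, was higher by 0.97 on day 0 and 1.24 on day 6, and at -0.38 on day 3 without passing there. Both counts depend on single arrays: without upf3-1 day 3 replicate 2 they were 316 and 245, and without upf3-1 day 3 replicate 1 they were 48 and 6. Fitted with only the groups compared, the counts were 44 and 0.

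Set against upf1-1 on the same day, upf3-1 differed in 1053 genes (7.93%), 582 higher (4.38%) and 471 lower (3.55%). AT2G16005 was higher in upf3-1 than in upf1-1 by 4.36 (SE 0.61), AT1G09310 by 3.93 (SE 0.31), QQS by 3.67 (SE 0.28), AT1G50060 by 3.23 (SE 0.37) and BGLU44 by 2.86 (SE 0.38). Of these, QQS was at 0.18 in upf1-1 against the wild type, BGLU44 at -0.05 and AT1G09310 at -2.70, where the same wild type arrays serve both comparisons. UPF3 was lower than in upf1-1 by 3.57 on the log2 scale. After it came AT2G07722 (-1.07, SE 0.18), AT1G29090 (-0.98, SE 0.22), AT2G07741 (-0.92, SE 0.15) and BGLU28 (-0.92, SE 0.28). The BGLU28 difference was lost in 4 of 6 fits without 1 array (adjusted p 0.118 to 0.23), and that of AT1G29090 without upf3-1 replicate 1 (adjusted p = 0.0524). AT2G07722 and AT2G07741 rest on probe sets that may cross-hybridise.

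Of the 15 called uORF and NMD target genes 3 differed between upf3-1 and upf1-1, where 7.93% of all genes did, all 3 of them higher in upf3-1: CPUORF47 by 0.74 (SE 0.16, adjusted p = 0.00428), AT1G36730 by 0.33 (adjusted p = 0.00564) and AT3G53400 by 0.28 (adjusted p = 0.0315). Of the 16 called photosynthesis genes 1 differed. Both sets had been picked as called on the same upf3-1 arrays. PRK was higher than the wild type by 1.67 in upf3-1 and by 2.06 in upf1-1, and AT5G45430 by 1.52 and 1.62. Without upf3-1 replicate 1 the comparison of the mutants gave 370 calls, and without replicate 2 it gave 1429.

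The day 3 differences were also set beside the changes that the wild type went through between days 0 and 6, in arrays other than those of day 3. Over that time 33.6% of genes were called in the wild type, 14.4% higher and 19.2% lower. Of 370 genes that rose at least 2-fold, 118 (31.9%) were higher in upf3-1 than in the wild type on day 3 and 60 (16.2%) lower, against 10.9% and 11.6% of all genes, with a median of 0.12 against -0.04. Of 266 that fell at least 2-fold, 25 (9.4%) were higher and 40 (15.0%) lower, near the shares of all genes, with a median of -0.04. Across all genes the day 3 difference had r = 0.070 with the wild type change, a value near 0, where genes are not independent.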

How the data were processed

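Transcripts were measured with Affymetrix arrays in 27 RNA samples of callus, 10 ug of total RNA each per the labels' protocols. The authors used RMA, per the submitters' processing notes (no version stated there), and deposited its log2 signals. This method corrects background, makes the distributions of all arrays equal and combines the probes of a set. A second deposited table held the same values, with 0 differences. Values ran from 2.04 to 13.48.

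Of 22810 probe sets, 13513 had 1 gene symbol in the platform annotation, 503 several and 8794 none, and 64 were controls. Only the first kind was used, and 13436 matched a RefSeq gene table (TAIR10.1, used for names, gene types and order only). The brightest probe set stood for each of 144 genes with more than 1, which left 13286 genes, 275 of them on probe sets marked for possible cross-hybridisation. No sequences were used.

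Group means of the 9 groups were estimated jointly with limma 3.58.1 in R 4.3.3 (lmFit and eBayes, 18 residual degrees of freedom). Two-sided p-values were adjusted over the 13286 genes (Benjamini-Hochberg), and called means an adjusted p under 0.05. SE is the model's standard error, and log2 differences rest on 3 arrays per group. Tables and figures were made with pandas 2.3.3, numpy 2.4.6 and matplotlib 3.10.9. The labels do not say that replicates are separate cultures, so the p-values rest on a spread between samples that may be technical only. On simulated data shaped like this comparison over 13286 genes, calls were made for 55 of 67 genes set to 1.5-fold, 66 of 67 set to 2-fold and 66 of 66 set to 4-fold. There were 11 false calls, and 0 calls where nothing was changed. The simulated noise was drawn independently for each gene and array. These counts therefore do not cover deviations that many genes of an array share.

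Genes named by rule are UPF3, the 12 highest and 12 lowest called genes without overlap, up to 5 called members of each of 19 lists (or the 2 with the smallest p), up to 3 of each of 12 families, and the 5 highest and lowest of the other contrasts. The lists hold 297 entries, of which 81 were measured. The comparison, lists and tests were chosen with earlier results of these data known, and the families by name pattern after the values were seen. Alternatives were other array scales (24 poly-A control probe sets or 4 reference genes), other filters and models, a replicate block, and leaving out each array.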

Additional observations from a re-analysis of the deposited data

Results flagged for a closer look

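The effect of upf3-1 differed between days, by the limma test of that difference, for genes named by the rule given above. For day 3 minus day 0, the change in effect was 2.45 for AT5G44380, 2.32 for AT2G43610, 2.31 for AT3G22060, 2.30 for AT3G45680, 2.24 for AT4G11190, -1.68 for AT4G15700, -1.35 for AT4G15660 and -1.33 for EXPA7, and these 8 calls held with any 1 of the 12 arrays left out. The change was 2.33 for AT1G50060, 1.48 for AT3G58550, -1.36 for GH3.1 and -1.35 for BAT1, with calls lost in 10, 5, 6 and 8 of those 12 fits.

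For day 6 minus day 3, the change in effect was 3.09 for AT3G48640, 1.55 for AT3G21080 and 1.40 for AT5G18840. These 3 calls held in all 12 fits without 1 array, but with only the groups compared 0 genes were called. The change was -2.69 for AT1G50060, -2.23 for AT1G49450, -1.80 for AT1G75900, -1.48 for AT3G58550, -1.48 for AT1G47400, 1.62 for BAT1, 1.54 for AT1G35710, 1.05 for AT3G46880 and 0.95 for ROXY2, with calls lost in 4 to 10 of the 12 fits. Single arrays within the groups of 3 were not tested as outliers.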

How the results depend on the processing

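The number of genes called between upf3-1 and wild type on day 3 stayed within 1.5 times of 2994 under all alternatives, from 2187 to 2775 with 1 array left out. The share of higher calls moved from 48.5% to 96.8% on the poly-A control scale, 96.3% on an earlier set of 15 control probe sets that included TrpnX, and 72.2% on the reference genes. The count for day 3 against day 0 (88) was 140 with a replicate block within each day, 44 with only the groups compared, 45 above the median level, 56 on the control scale, and 48 to 316 with 1 array left out, where 86 of the 88 were kept without upf3-1 day 3 replicate 2. The count for day 6 against day 3 (47) was 0 with only the groups compared (limma, 1329 at an unadjusted p under 0.05), 27 above the median level, 30 on the reference genes, and 6 to 245 with 1 array left out, where all 47 were kept without that replicate. The count against upf1-1 (1053) was 409 with only the groups compared, 430 on the control scale and 370 to 1429 with 1 array left out. The causes were not tested.

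Of 329 genes followed, direction reversed only on the control scales: PHV 0.0136, ZAP1 0.0278, AUR2 0.0468 (0.0136 on the earlier set) and AT5G54010 0.0509 (0.0177). The replicate block gave 2825 calls, with 5 of the followed genes losing and 3 gaining a call. The labels do not say whether replicate numbers pair the samples. Deviations of same-numbered arrays correlated with r of -0.073, -0.065 and 0.27, and only upf3-1 replicate 3 was closest to its own number. With 3 arrays per group these values cannot decide whether the samples are paired. The earlier control set and, for the 3 last counts, the array scales and the fits without arrays of other groups were chosen after seeing the data.

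Depth is not defined for arrays, and signals near the lower end cannot show falls. Most lists are measured in part, and a gene outside the 13286 was not analysed here.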
